A study of Homo sapiens with 6 samples.

Results

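The genes described here encode the proteasome, its regulators and its assembly chaperones. They were chosen by symbol, as PSMA to PSMG followed by digits, with PSMB8 and PSMB9 left out, which gave 46 of the 23228 genes in the count tables. Of the 46, 17 belong to the core, 17 to the cap, 5 are activators or an inhibitor and 7 are assembly chaperones. The 44 with enough reads were tested between 3 control and 3 ADP-CM libraries. RNA came from RL95-2 cells, a single established line of human endometrial carcinoma, so every library shares the genome of 1 line. In both groups the cells were kept for 24 h without serum. Controls received equal parts of RPMI and DMEM, and in the ADP-CM group the DMEM was replaced by ADP-CM, DMEM in which primary human adipocytes had been kept, at 50% of the volume. The comparison asks what medium conditioned by adipocytes changes in these cells. Factors secreted by the adipocytes were not separated from other changes in that medium. Nothing in the labels says that the 3 libraries of a group came from separate cultures, so p-values measure the spread between these libraries, which may be technical.

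The proteasome is the protease of the nucleus and cytosol that degrades proteins tagged with ubiquitin. Its core is a barrel of alpha rings, which gate the entrance, and beta rings, which hold the cleaving sites, while the cap binds ubiquitin chains, removes them and unfolds the substrate with a ring of ATPases. Interferons can replace the catalytic beta subunits by inducible ones and raise the PA28 activator, which favours peptides for antigen presentation, and most other subunit genes are expressed in every cell and tend to be regulated together.

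Reads counted on genes ranged from 16262614 to 17096135 in control and from 18103609 to 18363033 in ADP-CM, and 12663 genes passed the filter on low counts. Of 8 epithelial markers, 7 were above 10 CPM, with MUC1 the exception, and the summed level of the 8 was 4144 to 4217 CPM in control and 3490 to 3539 CPM in ADP-CM. The members of this list went in different directions. KRT8 (group means 1843 and 1438 CPM), KRT18, KRT19, CDH1 and CLDN4 were lower in ADP-CM at an edgeR adjusted p under 0.01. PAX8 (150 and 182 CPM) and MUC1 were higher at that limit, and EPCAM had 200 and 201 CPM. Of 8 adipocyte markers, 7 were under 1 CPM and ADIPOQ and LEP were at 0, and the sum was 10.1 to 10.7 CPM in control and 10.4 to 12.2 CPM in ADP-CM. Of the stromal markers only COL1A1 was above 10 CPM (list sum 61.5 to 68.4 against 78.3 to 79.1 CPM). Among endothelial markers CDH5 alone was above 10 CPM and KDR was at 0 (60.7 to 66.4 against 54.5 to 61.6 CPM), and leukocyte markers summed to 7.08 to 8.53 against 9.98 to 12.2 CPM. The part of these shifts in the results was not tested. CPM values are the reads of a gene per 1000000 reads on genes, with library sizes normalized by TMM. They were computed from RNA of whole cultures, where fewer cells making a transcript and less transcript per cell cannot be told apart.

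Differences in the proteasome genes were small. The share of the reads on genes that fell on the 46 members was 0.770, 0.771 and 0.786% in the control libraries. In the ADP-CM libraries it was 0.778, 0.779 and 0.778%, within the control range. By edgeR's quasi-likelihood test, 5 of the 44 tested members (11.4%) passed an adjusted p-value of 0.01, against 26.5% of all tested genes. PSMD13 was raised, against 13.5% of all genes raised, and PSMC3, PSMC5, PSME1 and PSME2 were lowered, against 13.0% of all genes lowered. None passed a fold change of 1.5 as well, with edgeR or with DESeq2, and none did at an unadjusted p of 0.05. Over all genes, 2.27% passed the adjusted p and that fold, 1.14% raised and 1.14% lowered. None of the members passed a fold limit of 1.2 at the adjusted p of 0.01 either, which 1214 of all genes did. At an unadjusted p of 0.05, 16 members passed, and 45.0% of all genes did.

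The small number of calls went with small changes that were tightly measured. The median log2 fold change was 0.00481 over the members and -0.00231 over all tested genes, and the median size of the change was 0.0492 against 0.106. Of the 44 members, 37 (84.1%) lay within 0.1 on the log2 scale, against 47.8% of all genes. The 95% interval of the log2 fold change lay within 0.2 of 0 for 41 members (93.2%), against 43.1% of all genes. Members were also highly expressed, with 41 of 44 over 50 CPM against 40.9% of all genes. Among the 5177 tested genes over 50 CPM, 37.9% passed the adjusted p of 0.01, 61.8% lay within 0.1 and 73.7% had an interval within 0.2. For the 41 members at that level the shares were 12.2%, 87.8% and 97.6%. Directions were mixed, with 24 members higher in ADP-CM and 20 lower, where 49.4% of all genes were higher. In 17 members the groups did not overlap (38.6%), against 45.5% of all genes. The median coefficient of variation between replicates was 2.32% in control and 1.90% in ADP-CM for the members, and 3.76% and 3.89% for all genes.

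**Figure D1:**
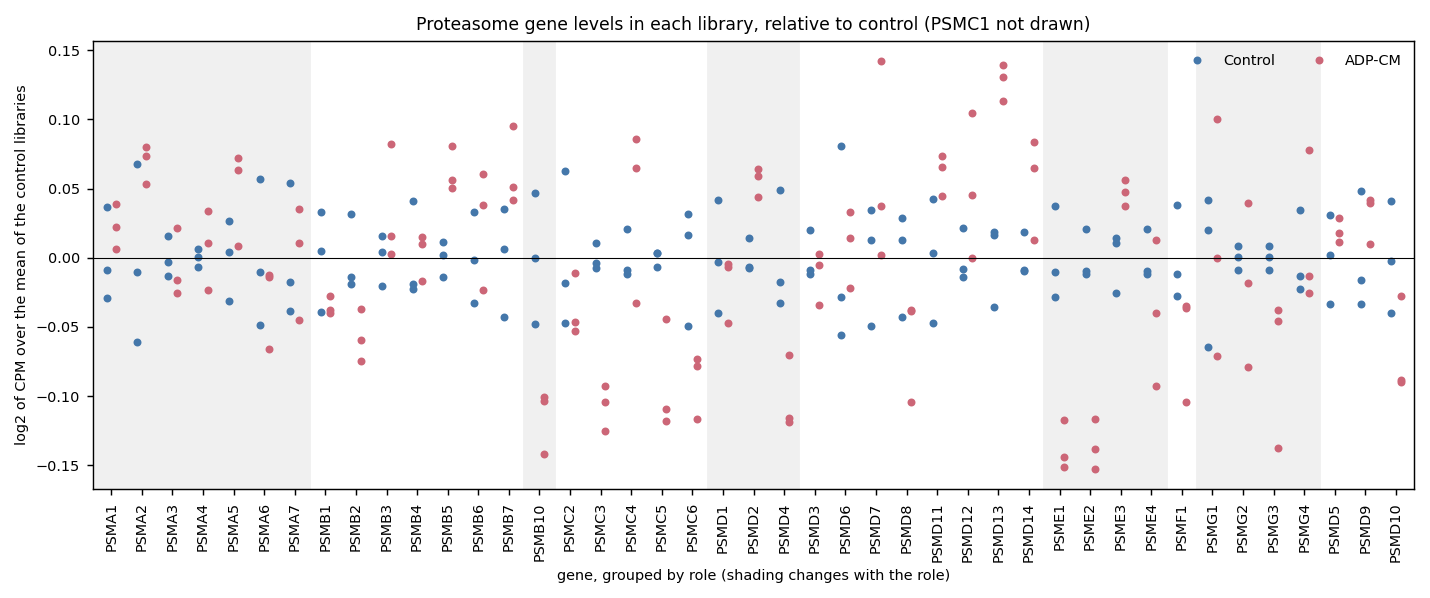
Level of 43 tested proteasome genes in each library, as log2 of CPM over the mean of the 3 control libraries (vertical axis), with genes grouped by role along the horizontal axis and shading that changes with the role. Each point is 1 library, blue for control and red for ADP-CM. The groups do not overlap in 16 of the 43 genes (37.2%), against 45.5% of all tested genes. Among these 16, PSME1, PSME2, PSMC3, PSMC5 and PSMB10 sit below all their control points and PSMD13 above.

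In the core, no subunit passed the adjusted p of 0.01. The 7 alpha ring subunits had log2 fold changes from -0.03 to 0.07, and in none of them did the groups stand apart. The alpha subunit farthest from 0 was PSMA2, with 208, 215 and 227 CPM in control and 225, 228 and 229 CPM in ADP-CM (log2 fold change 0.07, edgeR adjusted p = 0.0352). PSMA8, the testis form of an alpha subunit, had 0 reads in all 6 libraries, which allows up to 3 reads per library by counting error alone.

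The catalytic beta subunits were near their control levels. PSMB5, which carries the chymotrypsin-like site, had 240, 236 and 239 CPM in control and 248, 252 and 247 CPM in ADP-CM (log2 fold change 0.06 ± 0.0244 (SE), edgeR adjusted p = 0.0358). PSMB7, with the trypsin-like site, had 224, 219 and 212 CPM in control and 225, 233 and 226 CPM in ADP-CM (0.06 ± 0.0259, edgeR adjusted p = 0.0482). For both genes every ADP-CM library lay above every control library, by little. PSMB6, with the caspase-like site, had 148, 141 and 144 CPM in control and 151, 142 and 148 CPM in ADP-CM, which overlapped (0.03 ± 0.0299, edgeR adjusted p = 0.539). The remaining beta subunits PSMB1, PSMB2, PSMB3 and PSMB4 had log2 fold changes from -0.06 to 0.03. PSMB2, at -0.06, was the only one of these with groups that did not overlap (edgeR adjusted p = 0.0465).

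PSMB10 is the interferon-inducible counterpart of PSMB7. It had 32.4, 33.5 and 34.6 CPM in control and 31.2, 30.3 and 31.2 CPM in ADP-CM. All ADP-CM values were below all control values, at a log2 fold change of -0.12 ± 0.0541 that did not pass (edgeR adjusted p = 0.0863, 95% interval -0.22 to -0.01). PSMB11, a thymus-specific beta subunit, had 1 read in control replicate 3 and 0 in the other libraries. In the GENCODE annotation 39.4% of the exonic bases of PSMB10 are shared with another gene model on the same strand. The next largest such overlaps among the members were 26.69% for PSMA1 and 17.25% for PSMA2. The authors' methods name NCBI RefSeq genes for the counts, and whether these overlaps affected the counts was not tested.

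In the cap, 2 of 6 base ATPases were lowered, where 13.0% of all genes were, and 1 of 8 lid subunits was raised (12.5%), where 13.5% of all genes were. The ATPases form the ring that unfolds substrates. PSMC3 (Rpt5) had 211, 211 and 213 CPM in control and 197, 199 and 194 CPM in ADP-CM, a change of -7.17% (log2 fold change -0.11 ± 0.0258, edgeR adjusted p = 0.000596). PSMC5 (Rpt6) had 228, 228 and 226 CPM in control and 220, 210 and 209 CPM in ADP-CM (-0.09 ± 0.0257, edgeR adjusted p = 0.00373). Neither gene had an ADP-CM library that reached the control range, although ADP-CM replicate 1 was the closest for PSMC5. PSMC6 (Rpt4) had 80.8, 79.9 and 76.3 CPM in control and 72.9, 74.8 and 75.1 CPM in ADP-CM without overlap, and did not pass (-0.09, edgeR adjusted p = 0.0522). PSMC2 and PSMC4 had log2 fold changes of -0.04 and 0.04, with overlapping groups. The reads of the 6 ATPase genes together made up 0.0834, 0.0845 and 0.0839% of the reads on genes in control and 0.0815, 0.0802 and 0.0807% in ADP-CM, without overlap.

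The call of PSMC5 depended on the tool and on single libraries. With DESeq2 its adjusted p was 0.0178, and it was 0.0150, 0.0192 and 0.0106 in edgeR without control replicates 1, 2 and 3, and 0.0140 and 0.0165 without ADP-CM replicates 2 and 3. Of the exonic bases of PSMC5, 15.3% lie opposite FTSJ3.

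The lid removes ubiquitin chains before the substrate enters. PSMD13 (Rpn9), a scaffold subunit of the lid, had 172, 166 and 173 CPM in control and 186, 188 and 184 CPM in ADP-CM, a change of 9.29% (log2 fold change 0.13 ± 0.0273, edgeR adjusted p = 0.000116). It was higher in 3 of 3 ADP-CM libraries than in any control library. PSMD14 (Rpn11), the deubiquitinase of the lid, had 178, 182 and 178 CPM in control and 188, 190 and 181 CPM in ADP-CM, which overlapped (0.05, edgeR adjusted p = 0.112). The lid genes PSMD3, PSMD6, PSMD7, PSMD8, PSMD11 and PSMD12 had log2 fold changes from -0.06 to 0.06, and among these the groups stood apart in PSMD11 only (0.06, edgeR adjusted p = 0.0608). Altogether 6 of 8 lid genes were higher in ADP-CM and 2 lower, and their log2 fold changes had a median of 0.0524, which was 0.0298 without ADP-CM replicate 2 and 0.0722 without ADP-CM replicate 3. The lid genes together took 0.139, 0.137 and 0.141% of the reads in control and 0.143, 0.144 and 0.142% in ADP-CM. The control and ADP-CM ranges of that share did not overlap.

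Of the base subunits without ATPase activity, none passed. PSMD4 (Rpn10), a receptor for ubiquitin chains, came nearest the limit, with 111, 109 and 116 CPM in control and 107, 103 and 103 CPM in ADP-CM (-0.10 ± 0.0328, edgeR adjusted p = 0.0104). All 3 ADP-CM values were below the control range. Over the alternatives its adjusted p ran from 0.00764 in edgeR with the replicate number as a block to 0.109 in edgeR without control replicate 3, with 0.0560 in DESeq2. PSMD2 (Rpn1), the scaffold that holds ubiquitin shuttles, had 449, 449 and 455 CPM in control and 465, 472 and 470 CPM in ADP-CM, with all ADP-CM values higher (0.06, edgeR adjusted p = 0.0262). PSMD1 (Rpn2) had a log2 fold change of -0.02 with overlapping groups.

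**Figure D2:**
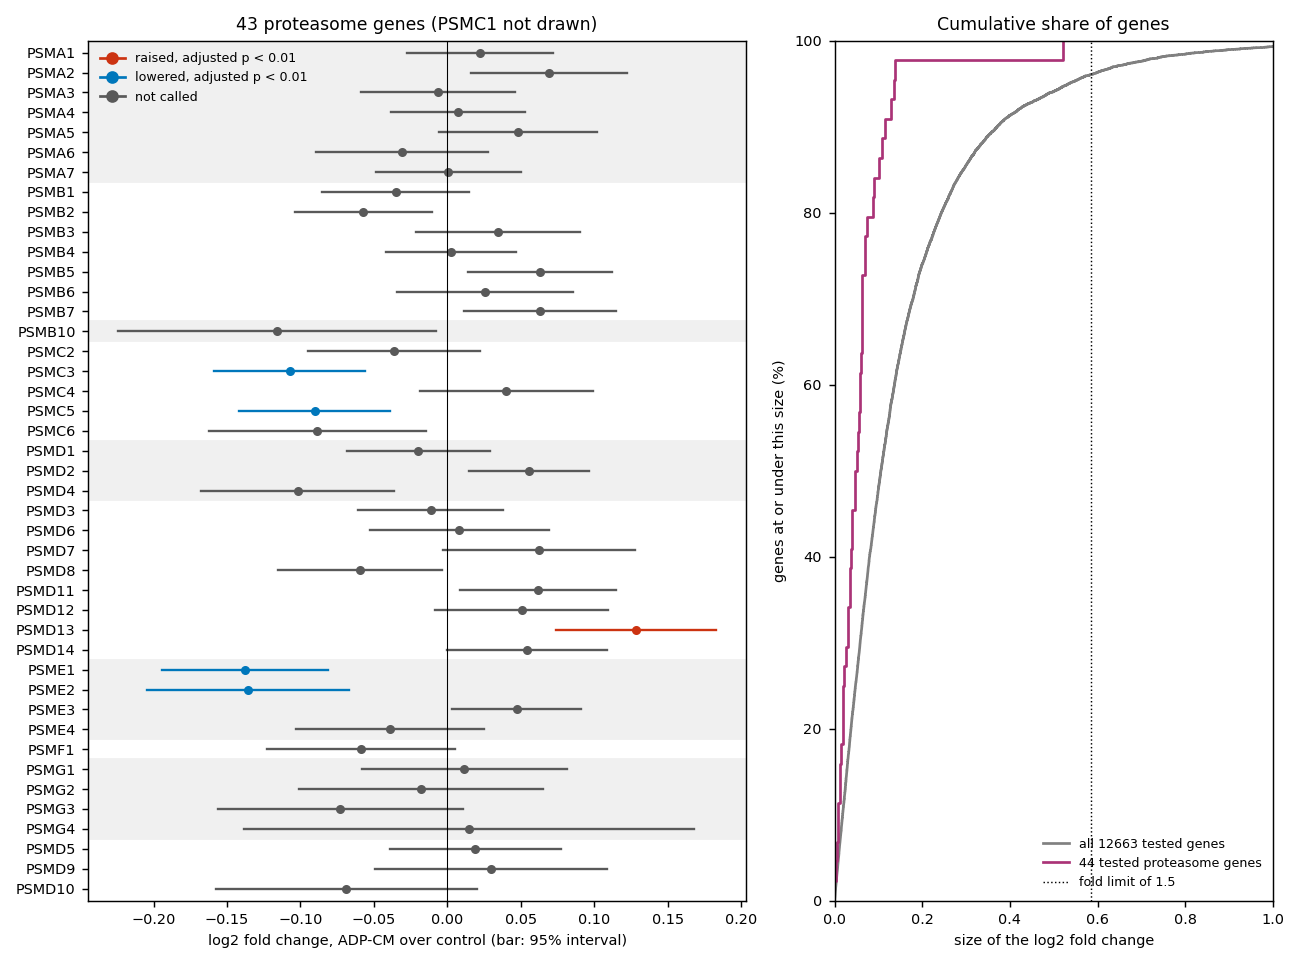
Left, log2 fold change of ADP-CM over control for 43 proteasome genes (points) with 95% intervals (bars), grouped by role, PSMC1 not drawn. Right, the cumulative share of genes (vertical axis, %) by size of the log2 fold change (horizontal axis) for the 44 tested proteasome genes and all 12663 tested genes, where 84.1% and 47.8% lie within 0.1.

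The activators open the gate of the core without ATP, and here they split. PSME1 and PSME2, the interferon-inducible subunits of the PA28 activator, were both lowered. PSME1 had 171, 168 and 176 CPM in control and 155, 155 and 158 CPM in ADP-CM, a change of -9.11% (log2 fold change -0.14 ± 0.0282, edgeR adjusted p = 6.35e-05). PSME2 had 94.4, 92.3 and 92.4 CPM in control and 85.8, 84.5 and 83.7 CPM in ADP-CM, a change of -8.97% (-0.14 ± 0.0344, edgeR adjusted p = 0.00114). In each case the 3 ADP-CM libraries lay below the 3 controls. PSME2 did not pass with DESeq2 (adjusted p = 0.0124) or in edgeR without control replicate 1 (adjusted p = 0.0101).

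The other 2 activators and the inhibitor did not pass. PSME3, the nuclear relative of PSME1 and PSME2, had 345, 354 and 353 CPM in control and 363, 360 and 365 CPM in ADP-CM, all higher (0.05 ± 0.0220, edgeR adjusted p = 0.0852). PSME4, a single-chain activator of the nucleus, had 118, 118 and 120 CPM in control and 115, 120 and 111 CPM in ADP-CM, which overlapped (-0.04, edgeR adjusted p = 0.360). PSMF1, which binds the core and inhibits it in vitro, had 116, 121 and 117 CPM in control and 115, 115 and 110 CPM in ADP-CM, narrowly without overlap (-0.06, edgeR adjusted p = 0.148).

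Within each library, the inducible genes were next counted per 100 reads of a partner gene, which needs no scaling between libraries. The reads of PSME1 per 100 of PSME3 were 49.5, 47.5 and 49.9 in control and 42.6, 43.2 and 43.4 in ADP-CM. For PSME2 per 100 of PSME3 they were 27.39, 26.04 and 26.15 against 23.7, 23.5 and 22.9. For PSMB10 per 100 of PSMB7 they were 14.5, 15.3 and 16.3 against 13.9, 13.0 and 13.8. All 3 ratios were lower in every ADP-CM library than in any control library. The partners PSME3 and PSMB7 were themselves higher in every ADP-CM library (log2 fold changes 0.05 and 0.06), which also lowers the ratios. The log2 change of PSMB10 over PSMB7 was -0.18, where PSMB10 itself had -0.12. The reads of PSME1 per 100 of PSME2 overlapped, at 181, 183 and 191 in control and 180, 184 and 189 in ADP-CM. Ratios of the other inducible beta genes, PSMB8 and PSMB9, to PSMB5 and PSMB6 went from 38.9 ± 1.67 to 34.5 ± 0.133 and from 27.1 ± 2.98 to 21.7 ± 0.533 (SD, n = 3 each), also without overlap. The partner PSMB5 was likewise higher in every ADP-CM library (log2 fold change 0.06). The log2 change of PSMB8 over PSMB5 was -0.17, where PSMB8 itself had -0.11. By the two-sided exact permutation test, p was 0.1 for each of these 5 ratios, the smallest that 3 against 3 allows, and 0.9 for PSME1 over PSME2, with adjusted values of 0.12 and 0.9 over the 6 pairs.

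**Figure D3:**
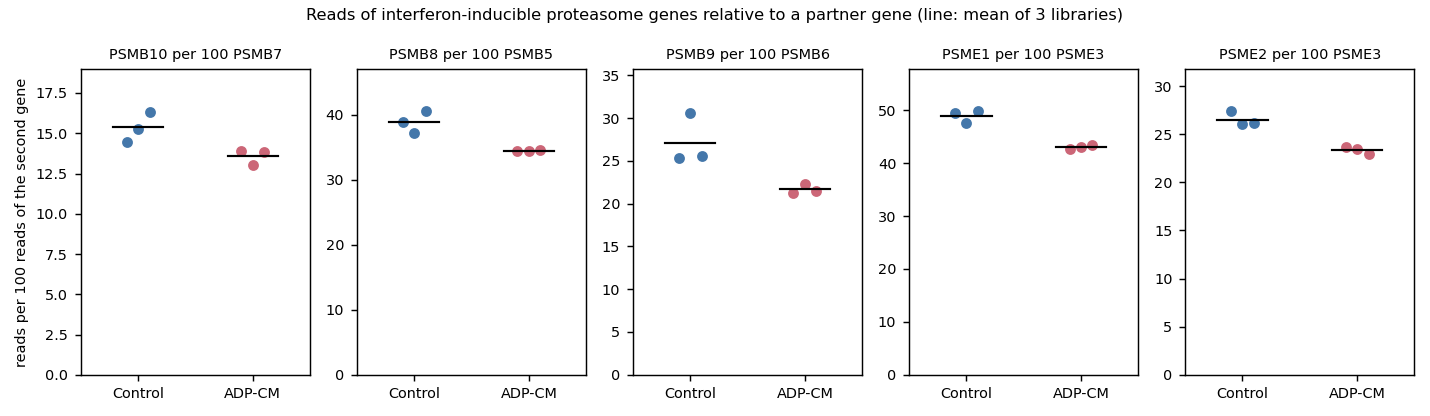
Reads of 5 interferon-inducible proteasome genes per 100 reads of a partner gene (vertical axis) in each control (blue) and ADP-CM (red) library, with a line at the mean of 3. In every panel the ADP-CM points lie below all control points, for example 42.6 to 43.4 against 47.5 to 49.9 for PSME1 over PSME3.

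PSME1 and PSME2 lie close together on chromosome 14. In the GENCODE annotation of GRCh37, PSME1 is at chr14:24605372-24608176 on the plus strand and PSME2 at chr14:24612571-24616779 on the minus strand. PSMD13 is at chr11:236966-252984 on the plus strand, PSMC3 at chr11:47440320-47448024 on the minus strand and PSMC5 at chr17:61904512-61909386 on the plus strand. Promoters from 250 bases before to 50 bases after the start site were taken from RefSeq on GRCh38.p14, and 40 of the 46 members had one. PSMA7, PSMB1, PSMB6, PSMB7, PSMD4 and PSMG3 were not matched.

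Several short motifs were searched on both strands of these promoters, none of which overlapped another in the members. The core of the interferon-stimulated response element, GAAA and again GAAA with any 2 bases between them, occurred in 6 of 40 members (15%), namely PSMA4, PSMB4, PSMB10, PSME1, PSME2 and PSMG4, and in 3.65% of 27305 promoters. The core of the antioxidant response element, TGACNNNGC, bound by NRF1 and NRF2, occurred in 12 members (30%) and in 13.6% of all promoters. The CCAAT box occurred in 18 members (45%) and 35.7% of all, and the STAT site TTCNNNGAA in 5 members (12.5%) and 7.88% of all. Of the 5 called genes, PSME1 and PSME2 held the first and the second of these motifs, PSMC3 and PSMC5 a CCAAT box, and PSMD13 none of the 4. No other member with any of the 4 motifs was called. Of the other holders of the interferon motif, PSMA4, PSMB4, PSMB10 and PSMG4 had log2 fold changes of 0.007, 0.003, -0.12 and 0.015. A match describes the letters in the window and was not tested for binding.

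The promoters of PSME1, PSME2 and PSMB10 are shown because they are the inducible members with the interferon motif, and that of PSMD13 because it is the raised gene. Each runs 5′ to 3′ on the strand of its gene from 200 bases before the start site to 20 bases from it on. Capitals mark the interferon motif, in PSME1 as its reverse complement, and TGACNNNGC. The windows are chr14:24135994-24136213 (plus strand), chr14:24146591-24146810 (minus), chr16:67936831-67937050 (minus) and chr11:236776-236995 (plus) of GRCh38.p14, in that order.
PSME1: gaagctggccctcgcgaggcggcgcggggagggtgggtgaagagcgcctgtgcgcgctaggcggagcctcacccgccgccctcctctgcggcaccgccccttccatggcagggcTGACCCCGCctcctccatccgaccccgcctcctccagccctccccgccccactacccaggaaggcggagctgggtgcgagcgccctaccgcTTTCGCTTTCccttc
PSME2: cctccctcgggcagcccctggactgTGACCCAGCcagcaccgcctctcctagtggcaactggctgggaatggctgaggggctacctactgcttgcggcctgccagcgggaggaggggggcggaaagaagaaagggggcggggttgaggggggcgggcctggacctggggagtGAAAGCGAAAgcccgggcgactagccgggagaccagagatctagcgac
PSMB10: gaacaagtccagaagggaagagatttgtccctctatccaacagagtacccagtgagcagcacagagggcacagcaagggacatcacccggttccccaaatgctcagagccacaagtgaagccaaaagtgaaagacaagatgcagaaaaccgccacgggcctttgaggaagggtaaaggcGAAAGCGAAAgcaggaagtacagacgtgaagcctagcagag
PSMD13: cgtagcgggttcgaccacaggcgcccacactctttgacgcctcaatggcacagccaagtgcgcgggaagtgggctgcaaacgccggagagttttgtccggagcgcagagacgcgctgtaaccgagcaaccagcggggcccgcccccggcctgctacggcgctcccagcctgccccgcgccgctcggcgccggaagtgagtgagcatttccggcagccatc

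The interferon motif of PSME1 begins 6 bases into the transcript on the minus strand, and those of PSME2 and PSMB10 begin at 28 and 21 bases before the start site on the plus strand. The antioxidant motif begins 86 bases before the start in PSME1 and 175 bases before it in PSME2.

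The assembly chaperones did not pass in any case. PSMG1 to PSMG4, which build the core, had log2 fold changes from -0.07 to 0.01, and PSMD5, PSMD9 and PSMD10, which build the base, from -0.07 to 0.03. PSMG3 alone had groups that did not overlap, at 59.8, 59.5 and 59.1 CPM in control and 57.9, 54.0 and 57.6 CPM in ADP-CM (edgeR adjusted p = 0.170). PSMG4, the least abundant of the 7, had 15.4, 14.8 and 14.9 CPM in control and 14.9, 14.8 and 15.9 CPM in ADP-CM.

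Levels were compared between genes only after division by exon length. The lengths came from GENCODE, while the authors' methods name NCBI RefSeq genes for the counts. On this scale, reads per exonic base scaled to the same sum in every library, the median of the 14 standard core subunits was 397.5 in control and 406.9 in ADP-CM. Without PSMC1, the median of the 16 cap subunits was 170.9 in control and 169.2 in ADP-CM. Core subunits stand in equal number in the particle, but their length-normalized levels differed up to 7.12 ± 0.127-fold in control (SD, n = 3). PSMB4 was highest, with 769, 769 and 802 in control and 790, 778 and 792 in ADP-CM. PSMA6 was the lowest of the 14, with 106, 109 and 114 in control and 105, 110 and 109 in ADP-CM. This place depended on the length used. With the canonical transcript PSMA6 had a control mean of 383, and PSMA5 was the lowest at 123.5. The order within the core hardly separated PSMB4 (780 ± 19.2) from PSMA7 (751 ± 25.1), whose control values overlapped. Both lay above PSMB5 (690 ± 5.01) and PSMB3 (658 ± 7.53). The place of PSMB4 depended on the length too. With the longest transcript its control mean was 558.8, below PSMA7 (896.5), PSMB3 (703.3), PSMB7 (692.5) and PSMB5 (666.8).

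In the cap, again without PSMC1, the length-normalized levels differed up to 8.81 ± 0.322-fold in control, from PSMC3 at 417 ± 2.60 to PSMC6 at 47.4 ± 1.41 (SD, n = 3). The 8 lid subunits were closer to each other, from PSMD3 at 215 ± 2.30 to PSMD6 at 75.4 ± 3.86. PSMC3 and PSMD2 (408 ± 3.37) were neighbours at the top in control, while in ADP-CM PSMD2 (427 ± 3.69) stood above PSMC3 (390 ± 5.23). With the longest transcript PSMD2 was above PSMC3 in control too (484 against 419), and likewise with the canonical transcript (381 against 339). Which gene ranked highest or lowest depended on the transcript length used: with the longest transcript the core range was 8.54-fold and the cap range 5.76-fold, and with the canonical transcript 8.03-fold and 4.95-fold.

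**Figure D4:**
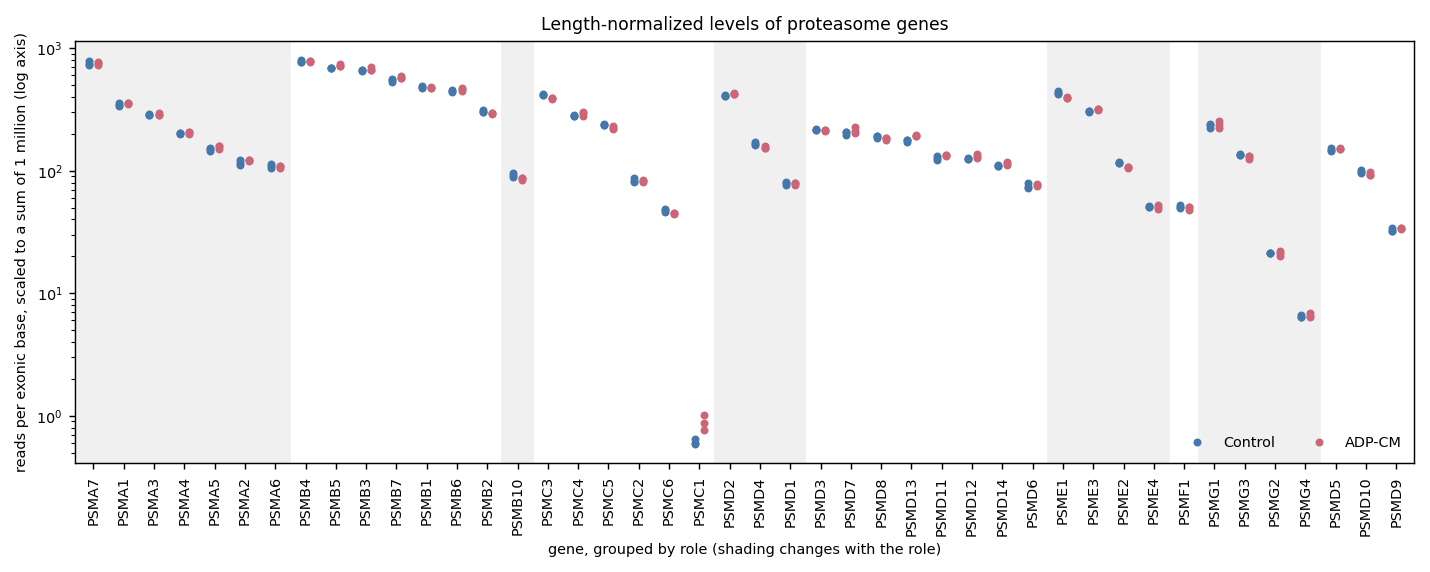
Length-normalized level (vertical log axis, reads per exonic base scaled to the same sum in every library) of the 44 tested proteasome genes in each control (blue) and ADP-CM (red) library, grouped by role and ordered by control mean within a role. The 14 standard core subunits span 110 to 780 in control and PSMB10 lies at 92.3, while PSMC1 lies at 0.612.

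PSMC1 (Rpt2) stood far below its partners, although the ATPase ring needs 1 copy of it for each of the other 5. It had 13, 15 and 14 reads in control and 25, 19 and 22 in ADP-CM, or 0.836 ± 0.0460 and 1.204 ± 0.173 CPM (SD, n = 3 each). The ADP-CM libraries were all higher, and the log2 fold change of 0.52 had a 95% interval of -0.07 to 1.12 (edgeR adjusted p = 0.164). Its length-normalized level was 0.612 in control, and that of PSMC6, the next lowest ATPase, was 47.4.

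The count of PSMC1 is uncertain for reasons that can be read from the genome. The gene lies at chr14:90722871-90741773 on the plus strand of GRCh37. Of the 1271 windows of 50 bases, the read length, in its coding sequence, 1254 (98.7%) occur at another place in that genome without a mismatch. Over the whole canonical transcript, with its untranslated parts, 1648 of 4341 windows (38.0%) do. There are 13 annotated pseudogenes that carry its name. In the opposite direction NRDE2 covers 76.2% of its exonic bases. Reads without a unique place were not counted on genes, and the strand setting of the counting is not given in the sources used here.

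Other members share fewer windows. In the coding sequence the shares were 47.3% for PSMC6, 35.0% for PSMA6, 25.1% for PSMD4, 22.01% for PSME2, 11.1% for PSMD2 and 8.27% for PSMD10. For 32 of the 46 members no coding window was found elsewhere, PSME1, PSMC5 and PSMD13 among them, and for PSMC3 the share was 2.76%. How far lost reads lowered the levels of these genes was not tested.

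**Figure D5:**
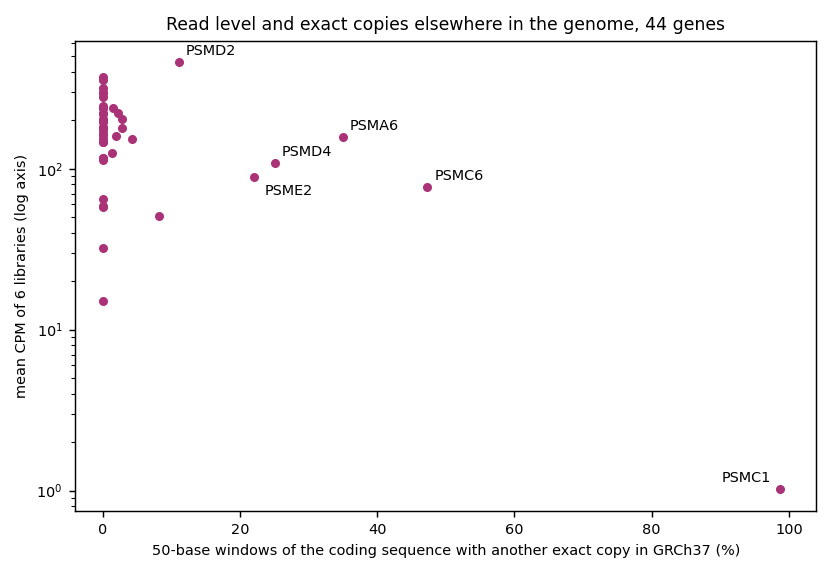
Mean CPM over 6 libraries (vertical log axis) of the 44 tested proteasome genes against the share of 50-base windows of the coding sequence with another exact copy in GRCh37 (horizontal axis, %). PSMC1, at 98.7%, lies near 1 CPM, and PSMC6, at 47.3%, has 74.2 to 79.0 CPM as group means.

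Genes that work with the proteasome were read from 6 lists written by hand. In these, 39 of 40 genes were tested and 12 (30.8%) passed the adjusted p of 0.01, 3 raised and 9 lowered, against 26.5% of all genes. DDI1, the testis-expressed shuttle factor, had 0 reads. None of the 12 passed the fold change of 1.5. The difference between these lists and the subunits was not tested.

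Among the ubiquitin genes and E1 enzymes, which supply and activate the tag, 2 were raised and 2 lowered of 6. All 6 were over 50 CPM, where 37.9% of tested genes were called, and over all genes 13.5% were raised and 13.0% lowered. UBB, a polyubiquitin gene, fell from 410 ± 6.06 to 373 ± 4.24 CPM (log2 fold change -0.14, edgeR adjusted p = 3.78e-07). RPS27A, which makes ubiquitin fused to a ribosomal protein, rose from 183 ± 16.7 to 207 ± 4.42 CPM (0.17, edgeR adjusted p = 1.19e-05), with overlapping groups and an adjusted p of 0.0801 in DESeq2. RPS27A has 19 named pseudogenes.

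Of the 5 interferon-linked genes, all were lower in ADP-CM and 3 passed, against 13.0% of all genes lowered. IRF1, the transcription factor that drives the inducible subunits, fell from 62.5 ± 1.10 to 49.6 ± 1.27 CPM (log2 fold change -0.33, edgeR adjusted p = 1.66e-09). PSMB9, the inducible counterpart of PSMB6, fell from 39.1 ± 3.50 to 31.8 ± 0.188 CPM (-0.30, edgeR adjusted p = 1.09e-05). PSMB8, the counterpart of PSMB5, went from 92.6 ± 4.51 to 85.9 ± 0.792 CPM and lay just outside the limit (-0.11, edgeR adjusted p = 0.0116), and ranged from 0.00282 without control replicate 2 to 0.145 without control replicate 3, with 0.0675 in DESeq2. NLRC5, an activator of antigen presentation genes, was at 12.0 ± 1.83 and 10.5 ± 0.118 CPM (-0.20, edgeR adjusted p = 0.0925).

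NRF1 and NRF2 are transcription factors known to control subunit genes together. NFE2L1, which encodes NRF1, had 320 ± 7.12 CPM in control and 314 ± 6.55 CPM in ADP-CM (edgeR adjusted p = 0.402). NFE2L2, which encodes NRF2, had 160 ± 3.36 and 157 ± 2.58 CPM (edgeR adjusted p = 0.375). Of the 11 regulators, NFYA alone passed, against 26.5% of all genes. NFYA, a subunit of the CCAAT-binding factor, fell from 101 ± 3.25 to 91.4 ± 3.93 CPM (-0.14, edgeR adjusted p = 0.000740), and its adjusted p was 0.0203 without control replicate 2. MAFF, a small partner of NRF1 and NRF2, went from 24.2 ± 0.546 to 26.9 ± 1.25 CPM without overlap and did not pass (0.15, edgeR adjusted p = 0.0446).

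Among the associated factors, PAAF1, a chaperone that binds the ATPases, was lowered (-0.23, edgeR adjusted p = 0.00927) and ZFAND5, which stimulates the proteasome, was raised (0.10, edgeR adjusted p = 0.00507). The adjusted p of PAAF1 was 0.0723 in DESeq2 and up to 0.0717 with 1 library left out. For ZFAND5 it was 0.0250 and up to 0.0514. Of the shuttle factors, which carry ubiquitinated proteins to the cap, RAD23B (-0.06, edgeR adjusted p = 0.00569) and UBQLN2 (-0.13, edgeR adjusted p = 0.00559) were lowered. Without 1 library their adjusted p rose to as much as 0.0447 and 0.0553, and UBQLN2 had 0.0434 in DESeq2. None of the 4 subunits or maturation factors with other symbols passed, and their log2 fold changes are in brackets. POMP, the maturation factor of the core, had 178 ± 9.18 and 188 ± 3.28 CPM (0.08, edgeR adjusted p = 0.0287), which ranged from 0.00232 without control replicate 3 to 0.294 without control replicate 1 (0.05), and was 0.102 in DESeq2. ADRM1, a ubiquitin receptor of the cap, had 158 ± 3.56 and 151 ± 7.56 CPM (-0.07, edgeR adjusted p = 0.0813), which ranged from 0.00262 without ADP-CM replicate 3 to 0.382 without ADP-CM replicate 1 (-0.04), and was 0.214 in DESeq2.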

How the data were processed

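RNA of 3 control and 3 ADP-CM libraries of RL95-2 cells was sequenced as 50 base reads. According to the submitters' processing notes and the methods, the authors aligned reads to hg19 with TopHat2 and assigned them to genes with HTSeq. Versions are not given in the sources used here, and the methods name NCBI RefSeq as the gene annotation. The authors deposited raw read counts per gene for each library, and all values here were computed from these deposited counts. Reads on no gene (10.3% in control, 11.5% in ADP-CM), ambiguous reads (0.719% and 0.714%) and reads without a unique place (20.5% and 20.7%) were kept out of library sizes. The depth of 16262614 to 18363033 reads on genes and a common biological coefficient of variation of 1.67% set the precision. Limits on counts of 0 cover counting error only.

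Counts were fitted in edgeR 4.0.16 (R 4.3.3) with TMM, filterByExpr defaults and the quasi-likelihood test, over all 12663 tested genes of 23228, with Benjamini-Hochberg adjustment. A call needed an adjusted p under 0.01. A fold change over 1.5 was a second limit. Alternatives were DESeq2 1.42.0, RLE size factors, plain library sizes, other filters and limits, a replicate block and each library left out. Exact permutation tests were used for ratios. Scripts were tested on simulated counts. The members and lists were chosen with earlier results of these data known.

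By the symbol rule, PSMB8, PSMB9 and PSMC3IP were left out. Values in each library are given for members that passed, the catalytic and inducible beta subunits, the activators and inhibitor, the extremes per length and members without enough reads, and a few near the limit or without overlap (PSMA2, PSMC6, PSMD2, PSMD4, PSMD14, PSMG3, PSMG4) were chosen after their values were seen. Of the lists, called genes (apart from a few not reported here) and NFE2L1, NFE2L2, POMP and ADRM1 are named, and PSMB8, NLRC5 and MAFF were added after their values were seen. GENCODE release 44 on GRCh37 matched 19137 symbols directly, 2184 by an older symbol and 1907 not at all, and gave exon lengths (union of exons). Copies were sought as 50-base windows of canonical transcripts without a mismatch.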

Additional observations from a re-analysis of the deposited data

Results flagged for a closer look

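Of the shares of reads outside the gene counts, a pair was above the level of the controls in every ADP-CM library. Of all counted reads, 11.55% lay on no gene in ADP-CM (SD 0.0322, n = 3) against 10.26% in control (SD 0.0551, n = 3), with ADP-CM libraries at 11.51 to 11.57% and controls at 10.2 to 10.31%. Reads without a unique place made up 20.73% in ADP-CM (20.67 to 20.77%) and 20.54% in control (20.49 to 20.61%). These reads enter none of the values of the proteasome genes, and their source was not tested.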

How the results depend on the processing

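With DESeq2, 3 proteasome genes were called (2 lowered), and 2139 of all genes. An adjusted p of 0.05 gave 11 proteasome genes, 5 of them raised, and 36.7% of all genes. With 1 library left out, 3 to 5 were called, against 20.6 to 25.1% of all genes, 1 to 2 raised and 2 to 4 lowered, the fewest without control replicate 1. PSMA2 was the second raised gene, without control replicate 3. PSMC3, PSMD13 and PSME1 passed under every alternative run at the adjusted p of 0.01. A fold limit of 1.2 gave 1214 of all genes in place of 288. The median log2 fold change of the proteasome genes was between -0.00798 and 0.0143 with 1 library left out. Ranges of length-normalized levels were 8.54 and 8.03 in the core and 5.76 and 4.95 in the cap with the longest and the canonical transcript, the latter chosen after seeing the data. With the replicate number as a block, 6 proteasome genes (PSMD4 added) and 3502 of all genes were called. Libraries of the same number correlated at 0.0726, 0.0141 and 0.0973 in their deviations from the group means. Those of different number ran from -0.0928 to 0.0261, the latter for ADP-CM replicate 2 with control replicate 1, the only positive value among them. The main fit did not take the numbers as a pairing. These small values cannot exclude a pairing, since the deviations of 3 libraries a group also hold counting error. A batch shared by number was not tested. In the refits of single named genes, 370 values kept their side of the limit, 31 lost the call, 7 gained it, and none of the called changes turned direction. Genes with few counted reads, such as PSMC1, could not be resolved. For PSMC1, 98.7% of the coding windows occur elsewhere in the genome, and whether more depth would resolve it was not tested. Changes in protein or in assembled proteasomes were not measured.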
